A study of Mus musculus with 30 samples.

Results

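The proteasome genes were followed in 30 single mouse cells chosen as primordial germ cells (PGCs), the founder cells of sperm and oocytes. Every gene whose symbol in the array annotation starts with Psma, Psmb, Psmc, Psmd, Psme, Psmf or Psmg and a number was taken, which gave 49 of the 18194 genes measured. The probe set (a group of short probes against 1 transcript) with the highest mean over the 30 cells stood for each gene. Of the 49 genes, 31 encode subunits of the 26S proteasome, 14 of its 20S core and 17 of its 19S cap. The other 18 encode immune or tissue-specific core subunits, activators, an inhibitor and assembly chaperones. Psmc3ip and Psme3ip1 came in through their symbols and encode no subunit: the product of Psmc3ip, also called HOP2, works in meiotic recombination. The only probe set for Psme2 names several genes, so Psme2 was not analysed here.

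The proteasome is the barrel-shaped protease that degrades proteins tagged with ubiquitin. Its 20S core stacks outer rings of alpha subunits on inner rings of beta subunits, of which Psmb5, Psmb6 and Psmb7 carry the cutting sites, and the 19S cap binds, unfolds and feeds in the substrate with a ring of ATPases (Psmc genes) and a set of non-ATPase subunits (Psmd genes). Interferon induces Psmb8, Psmb9 and Psmb10, which replace Psmb5, Psmb6 and Psmb7 in newly built cores and give the immunoproteasome, a form that favours peptides for MHC class I.

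The cells came from embryos of intercrossed C57BL/6 Prdm14 +/- mice at E7.25-E7.5 (days of embryonic development), picked singly after trypsin treatment of the base of the allantois, and their amplified cDNA went on 1 Affymetrix Mouse Genome 430 2.0 array each. PGCs were chosen by a PCR for Prdm1, and 13 cells were labelled WT, 13 Prdm14 +/- and 4 Prdm14 KO. Prdm14 encodes a transcriptional regulator of PGC specification. The Prdm14 transcript ran against the labels: its mean level was 11.40 ± 0.98 in the 4 cells labelled KO and 7.40 ± 1.85 in the 13 cells labelled WT (SD between cells), so all groups are called by their labels here and no direction below is a statement about genotype. Where its probes lie relative to the deleted stretch was not analysed here.

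Levels are log2 MBEI, the model-based expression index of the dChip program, with values under 6 set to 6 (64 MBEI). Because a sample is a single cell of an embryo that is not named, each label was treated as 1 sample without a test, and the SDs describe cells. A difference of at least 1 on the log2 scale (2-fold) counts as a call. The array codes place the cells in 3 runs: the first had WT cells alone (10), the second 7 +/- cells beside the remaining 3 WT cells, and the third all 4 KO cells beside 6 +/- cells. KO and WT cells met in no run, so a direct comparison between them cannot tell label from run. A fit of both together links them only through the +/- cells, and it assumes that run and label add. Each array listed between 58.9% and 69.6% of its probe sets at 0. Prdm1 was above the floor in 30 of 30 cells, but the cells had been chosen by it. Of the other germ cell markers measured, Ifitm3 and Alpl were above it in 30 cells, Kit in 28 and Dnd1 in 27. Tfap2c was in 26, Dppa3 in 24, Prdm14 in 22 and Itgb3 in 4. Of 15 somatic mesoderm genes measured, Msx1, Msx2 and Cdx2 were above the floor in all 30 cells and Tbx4 in none, with the others between. Of 6 endoderm genes, Sox17 was above it in 23 cells and 3 were at it in all cells. Of 5 immune cell markers, Ptprc and Fcer1g were at the floor in all 30 cells, Cd52 and Tyrobp were above it in 4 cells each and Laptm5 in 9, and the mean of the 5 per cell ran from 6.00 to 6.61 in the WT-labelled cells, from 6.00 to 6.11 in the +/- cells and from 6.00 to 6.55 in the KO cells.

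The chymotrypsin-like site of the core is formed by Psmb5 or, in the immune form, by Psmb8. Psmb5 was above the floor in 30 cells and Psmb8 in 21, and Psmb8 had the largest difference between labels of all members, so the 250 bases upstream of each are shown. Psmb5 lies on the minus strand, at chr14:54617996-54618245 for this window, and Psmb8 on the plus strand, at chr17:34197945-34198194 (RefSeq, GRCm38.p6, 5′ to 3′). Capitals mark a match to TGACNNNGC, the core letters of the antioxidant response element that the factors Nfe2l1 and Nfe2l2 bind.
Psmb5: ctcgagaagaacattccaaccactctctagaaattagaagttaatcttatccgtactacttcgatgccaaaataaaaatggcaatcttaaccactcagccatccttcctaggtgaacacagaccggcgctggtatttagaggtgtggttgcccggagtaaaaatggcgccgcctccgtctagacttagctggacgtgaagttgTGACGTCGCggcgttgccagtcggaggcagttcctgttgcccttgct
Psmb8: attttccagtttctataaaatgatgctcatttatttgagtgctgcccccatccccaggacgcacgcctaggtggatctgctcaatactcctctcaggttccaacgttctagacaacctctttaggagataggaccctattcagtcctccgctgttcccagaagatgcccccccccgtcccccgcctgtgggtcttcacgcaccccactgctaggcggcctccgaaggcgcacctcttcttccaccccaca
Neither window overlaps an annotated gene. The Psmb5 window had 49.6% GC and 15 CpGs. The Psmb8 window had 55.6% GC and 10 CpGs and held no match, on either strand, to TGACNNNGC, CCAAT or a pair of GAAA repeats set 2 bases apart, a form of the interferon-stimulated response element. Promoters were given for 25 of the 31 26S genes in 27 windows, of which 14.8% held TGACNNNGC (Psmb5, Psmb6, Psmc6 and Psmd12), against 10.2% of all 32851 windows of this length. CCAAT stood in 37.0% of the 26S windows and 33.8% of all, and the spaced GAAA pair in 7.41% (Psmb3 and Psmd4) and 2.98%. The median number of CpGs was 16 in the 26S windows and 6 in all. None of these motifs is part of another. A match is a match of letters only. In the genome annotation Psmb9, Tap1, Psmb8 and Tap2 follow one another on chromosome 17, where Tap1 and Tap2 encode the peptide transporter of class I presentation.

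All 31 genes of the 26S proteasome were above the floor in all 30 cells. Over the 49 members the count was 36, against 9.4% of all 18194 genes. The 7 alpha ring genes had means over the cells between 11.77 and 12.45 and the 7 constitutive beta ring genes between 11.54 and 12.66. The 6 cap ATPases lay between 10.50 and 12.13 and the 11 non-ATPase subunits between 9.43 and 11.74. These are ranges of single probe sets, which differ in their response, and no order of transcripts is read from them. The members outside the 26S were measured less evenly: 5 of the 18 were above the floor in every cell, namely Psme1, Psme3, Psmg1, Psmg2 and Psme3ip1.

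**Figure D1:**
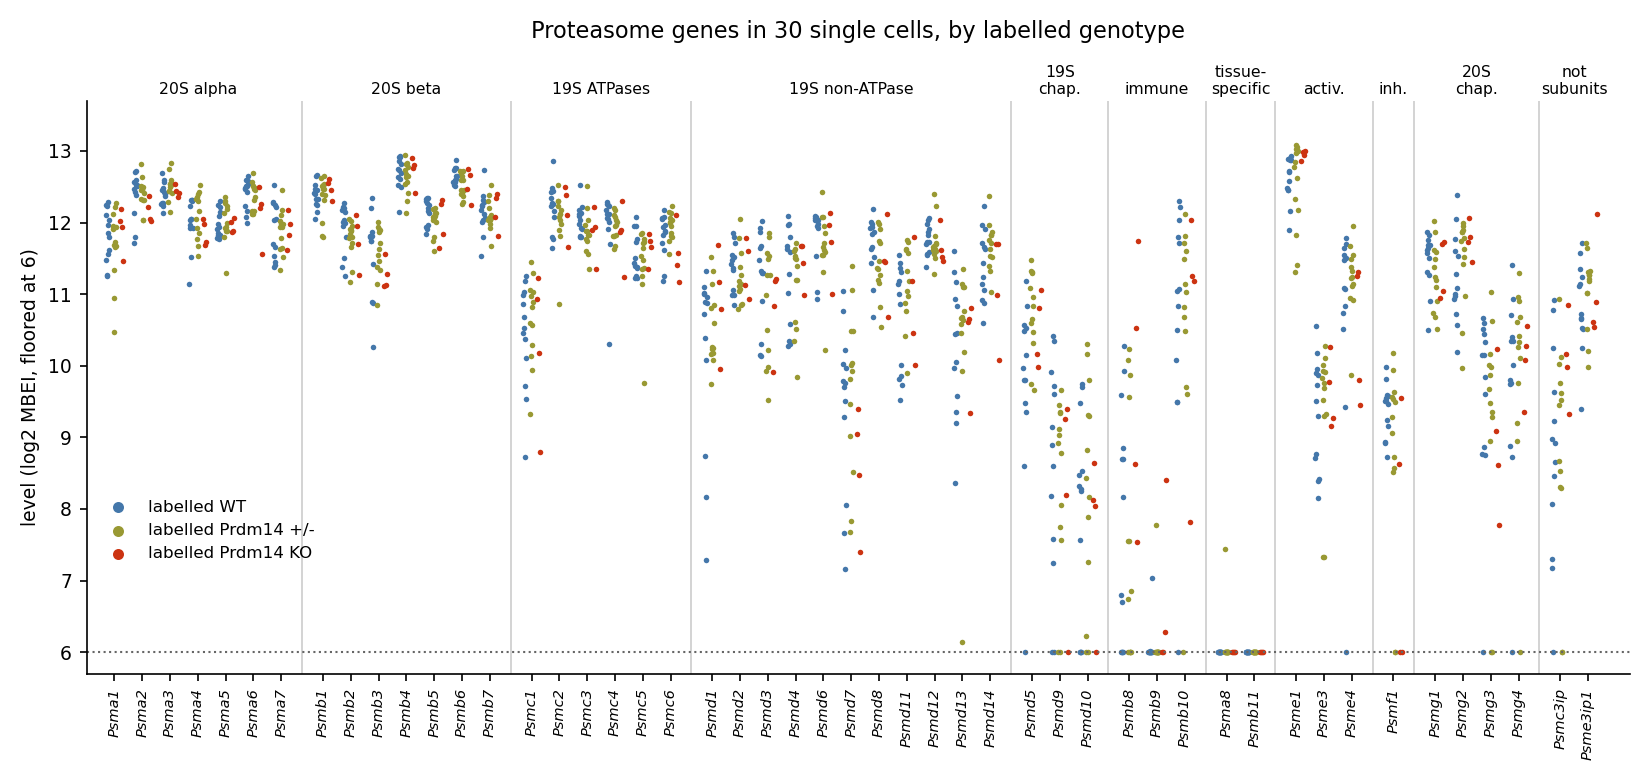
Level of each of the 49 genes in 30 single cells (vertical axis, log2 MBEI with values under 6 at 6), grouped by role, with 1 point per cell coloured by labelled genotype. The core and cap genes lie above the floor in every cell, while Psmb8, Psmb9, Psma8, Psmf1 and the assembly chaperones Psmd9 and Psmd10 reach the floor in some.

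Core genes varied little from cell to cell. Their SDs over the 30 cells ran from 0.16 (Psmb6) to 0.45 (Psmb3), with a median of 0.24. Psma3 had the lowest spread of the alpha ring, at 12.45 ± 0.16 with all cells between 12.13 and 12.83, and Psma1 the highest, at 11.77 ± 0.42 with cells between 10.48 and 12.28. Psmb6, which carries the caspase-like site, lay at 12.57 ± 0.16 and between 12.24 and 12.87. Psmb3, a beta subunit without a cutting site, lay at 11.54 ± 0.45 and between 10.26 and 12.34.

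Cap genes varied more, with a median SD of 0.46. Among the ATPases Psmc3 had the lowest spread (11.94 ± 0.27) and Psmc1 the highest (10.50 ± 0.71, from 8.73 to 11.45). Among the non-ATPase subunits Psmd12 had the lowest (11.73 ± 0.25), and the highest were Psmd7 (9.43 ± 1.14), Psmd13 (10.31 ± 1.07) and Psmd1 (10.44 ± 0.96). Psmd13 reached 6.14 in 1 cell labelled Prdm14 +/- of run 2, and its next lowest cell was at 8.36. Psmd1, the large scaffold subunit of the cap base, was lowest at 7.29 in a cell labelled WT.

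The spread of a gene on these arrays went with its level, so each 26S gene was set beside the 1711 genes above the floor in all cells with means in the same unit-wide band. Of the 31, 24 had a smaller SD than the median of their band, which was 13 of 14 for the core and 11 of 17 for the cap. Between 12 and 13 the 10 26S genes had a median SD of 0.24 and the 281 genes of the band 0.29. Between 11 and 12 the 16 26S genes had 0.40 and the 570 genes 0.56. Between 10 and 11 the 4 genes Psmc1, Psmd1, Psmd11 and Psmd13 had 0.84 and the 576 genes 0.78. Psmd7, the only one between 9 and 10, had 1.14 against 0.93. The bands are wide: the median SD of all their genes fell from 0.56 to 0.29 between the bands from 11 and from 12. Several of the 16 genes between 11 and 12, such as Psmc3 (11.94) and Psmc4 (11.93), lay near the top of that band. A gene's place inside its band was not adjusted for, so the counts do not separate spread from level.

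**Figure D2:**
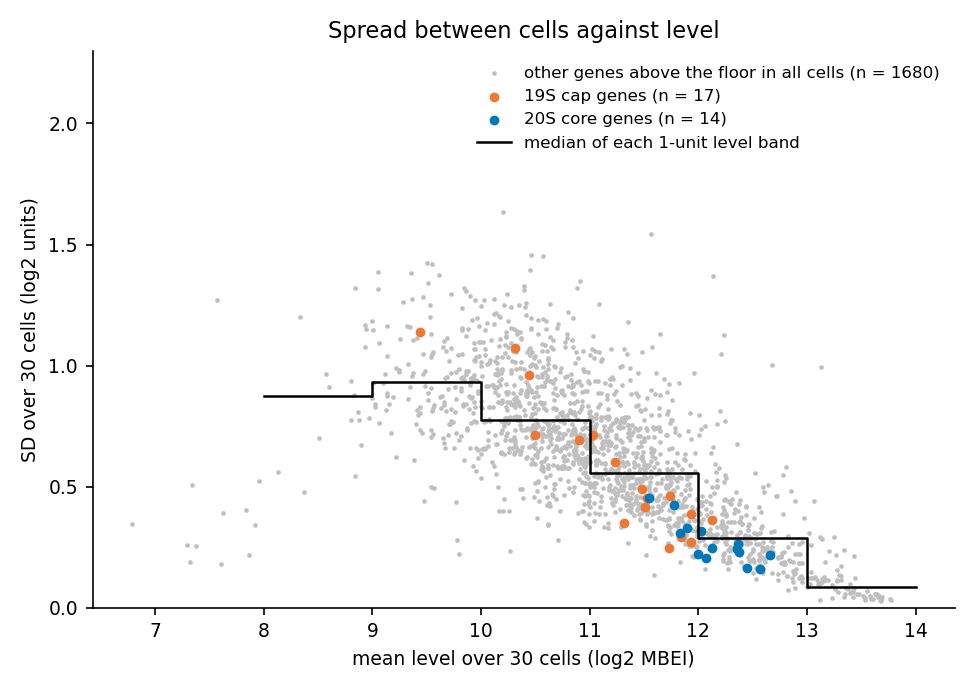
SD over the 30 cells (vertical axis, log2 units) against mean level (horizontal axis, log2 MBEI) for the 1711 genes above the floor in all cells, with the 14 core and 17 cap genes coloured and a step line at the median of each band. From a level of 9 upwards the spread is smaller at higher levels, and 24 of the 31 coloured points lie under that line.

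Pairs of 26S genes were only weakly related across cells. Over the 465 pairs the median Pearson r was 0.10 (n = 30 cells), against 0.01 over all pairs of the 1711 genes, and it was 0.12 against 0.01 for deviations from the mean of the same label and run. The closest pair was Psmb1 and Psmb4, neighbours in the beta ring, with r = 0.72, and 0.73 for the deviations. Psmd1 and Psmd4 followed within the cap, with 0.64. The lowest pair was the ATPases Psmc5 and Psmc6, with r = -0.45, but Psma1 and Psmb3 for the deviations, with -0.53. Genes of a cell share its array and amplification, and these values are a description.

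Core and cap genes were also averaged per cell, which narrows the spread of any list, and no lists of like size were compared. The core mean per cell was 12.15 ± 0.10 and the cap mean 11.24 ± 0.25 over the 30 cells, with r = 0.46 between them. The mean over all 31 genes ran from 11.21 in replicate 4 of the cells labelled Prdm14 KO to 11.91 in replicate 2 of those labelled WT. It correlated with the percentage of probe sets above 0 on the array (r = 0.45). With the array's median over the 1711 genes, which ran from 11.13 to 11.40, r was 0.36. The part of these in the range of the mean over the 31 genes was not tested.

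By label, the mean of the 31 genes was 11.66 ± 0.16 in the cells labelled WT, 11.65 ± 0.14 in those labelled Prdm14 +/- and 11.57 ± 0.25 in those labelled Prdm14 KO. KO minus WT was -0.09 (pooled SD between cells 0.18), KO minus +/- was -0.08 (0.17) and +/- minus WT was -0.01 (0.15). These differences were smaller than the spread between cells, and the ranges of the labels overlapped. For the core they were -0.08, -0.05 and -0.04, and for the cap -0.09, -0.11 and 0.01, in the same order. Without KO replicate 4, the lowest cell, KO minus WT over the 31 genes was 0.03 and KO minus +/- was 0.04. Within run 3 KO minus +/- was -0.12 (pooled SD 0.19), and within run 2 +/- minus WT was -0.06 (0.13). Between runs of 1 label the 31 genes differed by -0.03 (WT, run 1 minus run 2) and -0.07 (Prdm14 +/-, run 2 minus run 3).

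**Figure D3:**
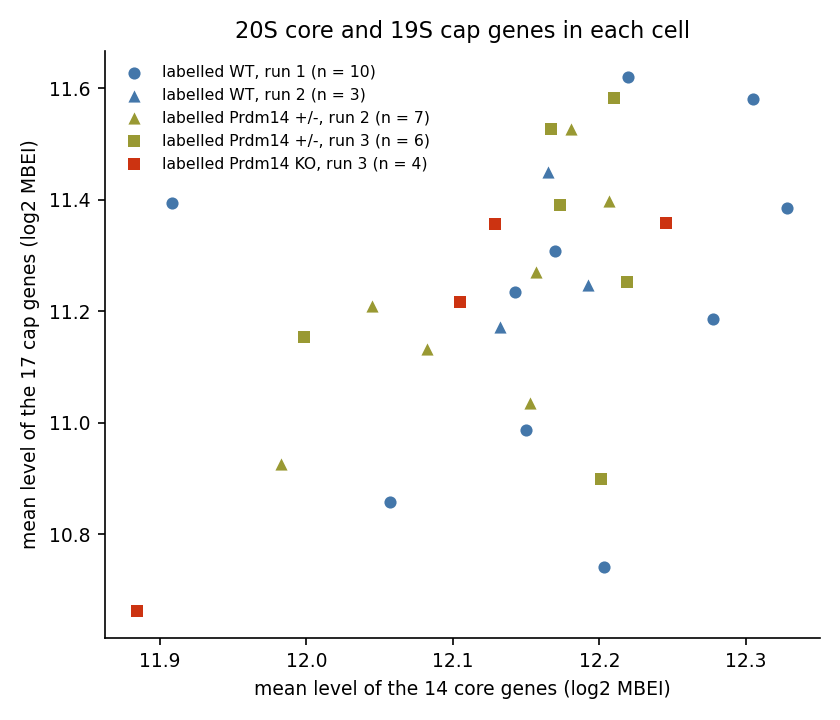
Mean level of the 14 core genes (horizontal axis) against that of the 17 cap genes (vertical axis), both log2 MBEI, with 1 point per cell, coloured by label and shaped by array run. The points of all labels and runs overlap, and replicate 4 of the cells labelled Prdm14 KO is the lowest on both axes, at 11.88 and 10.66.

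No 26S gene was higher or lower by 1 between KO and WT over all cells. Of the 1711 genes 2.22% were higher and 2.57% lower. With run as a block, that is, with run and label fitted together, Psmd3 (-1.44) and Psmd7 (-1.89) were lower. In that fit 11.7% of all 18194 genes were lower, and no share over the 1711 genes was taken. Without the block, 21 of the 31 had a negative difference, and the median was -0.11, against 0.01 over the 1711 genes. The differences ran from -0.88 (Psmd7) to 0.71 (Psmd1) in the cap and from -0.31 (Psmb3) to 0.10 (Psmb1) in the core. Between KO and +/- 1 of the 31, Psmd7, was lower by at least 1, where 1.52% of the 1711 genes were, and none higher (1.69%). Between +/- and WT there was no call (0.175% higher and 0.351% lower), and the differences ran from -0.31 (Psmd3) to 0.46 (Psmd11). No 26S gene had labels whose cells did not overlap, which held for 0.526% of the 1711 genes between KO and WT, 0.0584% between KO and +/- and 0.0% between +/- and WT.

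Psmd7, a subunit of the cap lid and partner of the deubiquitinase Psmd14, had the most negative differences of the 26S genes. Its levels in the 4 cells labelled Prdm14 KO were 7.40, 8.47, 9.05 and 9.40. The cells labelled WT ran from 7.17 through a median of 9.76 to 11.05, and those labelled Prdm14 +/- from 7.68 through 9.92 to 11.40. The KO cells lay in the lower part of both other groups and overlapped them. KO minus WT was -0.88 (pooled SD 1.11) and KO minus +/- was -1.09 (1.10), so only the second reached the call. Within run 3 the 6 cells labelled +/- were at 8.52, 9.92, 10.03, 10.49, 11.06 and 11.40, 5 of them above every KO cell, and the difference was -1.66 (pooled SD 0.97). Without KO replicate 4 KO minus +/- over all cells was -0.70. Among the cells labelled +/-, those of run 2 and run 3 themselves differed by -1.05. The gene's other probe sets were above the floor in 7 cells and in none, and with the mean over all its probe sets KO minus +/- was -0.51 and KO minus WT 0.02.

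The constitutive catalytic subunits were above the floor in all cells and their immune counterparts in some. Psmb5 was in 30 of 30 cells and Psmb8 in 21, Psmb6 in 30 and Psmb9 in 5, and Psmb7 in 30 and Psmb10 in 28. Of the 30 cells, 5 had all 3 immune genes above the floor, 15 had 2, 9 had 1 and 1 had none, and each of the 5 cells with Psmb9 also had Psmb8 (7.54 to 11.74). Psmb5 ran from 11.61 to 12.34 over the cells, Psmb6 from 12.24 to 12.87 and Psmb7 from 11.53 to 12.74. Differences between labels ran from -0.14 (Psmb5) to 0.05 (Psmb7) over the 3 constitutive genes, and their cells overlapped in every comparison.

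**Figure D4:**
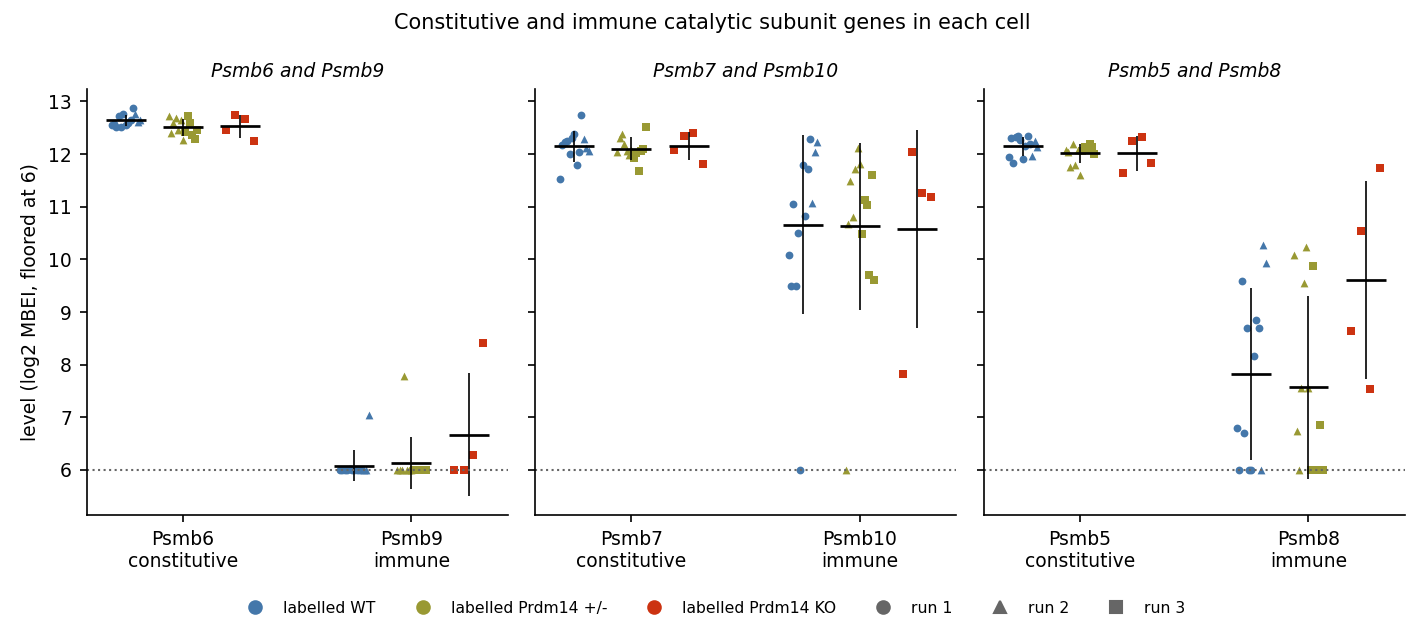
Level of each constitutive catalytic gene and its immune counterpart in every cell (vertical axis, log2 MBEI with values under 6 at 6), with 1 panel per pair, 1 point per cell, colour for the label and shape for the array run. Psmb5, Psmb6 and Psmb7 form tight bands near 12, Psmb10 is above the floor in 28 cells, Psmb8 in 21 and Psmb9 in 5.

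Psmb8 was above the floor in all 4 cells labelled Prdm14 KO, at 8.63 in replicate 1, 10.53 in replicate 2, 7.54 in replicate 3 and 11.74 in replicate 4. In the cells labelled WT it was above the floor in 9 of 13, with a median of 8.17 and a highest value of 10.28. In the cells labelled Prdm14 +/- it was above the floor in 8 of 13, with a median of 6.86 and a highest value of 10.23. The highest KO cells, replicates 4 and 2, exceeded every other cell, and the lowest ones lay within both other groups. The means were 9.61 ± 1.88, 7.82 ± 1.63 and 7.57 ± 1.74 (KO, WT and +/-). KO minus WT was 1.79 (pooled SD 1.68) and KO minus +/- was 2.04 (1.77), each little more than the spread between cells. Without KO replicate 4 KO minus WT was 1.08. Within run 3, where 4 of the 6 cells labelled +/- were listed at 0 and the others stood at 6.86 and 9.87, KO minus +/- was 2.82 (pooled SD 1.68). The cells labelled +/- of run 2 lay 1.46 above those of run 3, and the WT cells of run 1 differed from those of run 2 by -1.18. The immune cell marker Cd52 was above the floor in 2 of these 4 KO cells, in 2 of 13 WT cells and in 0 of 13 +/- cells, with a KO minus +/- of 1.28 (pooled SD 0.67). The markers Tyrobp and Laptm5 were at the floor in all 4 KO cells, with a KO minus +/- of -0.06 and -0.14. Ptprc and Fcer1g were at the floor in all 30 cells. The part of these markers in the Psmb8 values was not tested. A second probe set for Psmb8 was at the floor in all 30 cells, and the mean over both brought KO minus WT to 0.89.

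Psmb9 was at 6.01 and 7.04 in the 2 cells labelled WT that had it above the floor, at 7.78 in the 1 labelled Prdm14 +/- and at 6.28 and 8.41 in the 2 labelled KO. The labels overlapped, and without KO replicate 4 KO minus +/- went from 0.54 to -0.04. Psmb10 was at 7.81, 11.19, 11.26 and 12.04 in the cells labelled KO, with medians of 11.05 in those labelled WT and 11.03 in those labelled +/-, and KO minus WT was -0.09 (pooled SD 1.73). Here too the groups overlapped. With the run block its KO minus WT was -1.13, and within run 2 its +/- minus WT was -1.12. Over all cells Psmb8 alone of the 3 immune catalytic genes reached the call between labels.

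Psme1 encodes a subunit of the 11S activator, which interferon also induces, and was above the floor in all cells, at 12.60 ± 0.48. Its 4 cells labelled KO lay between 12.86 and 12.99, inside the range of the cells labelled +/- (11.31 to 13.08). Those labelled WT ran from 11.90 to 12.93. KO minus WT was 0.33 (pooled SD 0.28), above the spread between cells. KO minus +/- was 0.45 (0.57), and within run 3 it was 0.60 (0.52), above that spread. None of these reached the call. The mean of Psmb8, Psmb9, Psmb10 and Psme1 per cell was 9.95 ± 0.99 in the cells labelled KO, 9.29 ± 0.79 in those labelled WT and 9.21 ± 0.67 in those labelled +/-. KO minus WT was 0.66 (pooled SD 0.84) and KO minus +/- was 0.74 (0.74), neither above the spread between cells, and the groups overlapped. Within run 3 KO minus +/- was 1.02 (0.77), above that spread. Without KO replicate 4 the differences were 0.28 and 0.36, and without KO replicate 1 they were 1.03 and 1.12. The cell highest in this mean, KO replicate 4 at 11.08, was also the cell lowest in the 26S mean.

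The activators Psme3, a nuclear form of the 11S ring, and Psme4, also called PA200, lay at 9.41 ± 0.82 and 10.90 ± 1.14 and were above the floor in 30 and 29 cells. The chaperones that assemble the core were above the floor in 30 cells (Psmg1 and Psmg2), 27 (Psmg3) and 28 (Psmg4). Those that assemble the cap were above it in 29 (Psmd5), 25 (Psmd9) and 23 cells (Psmd10). Chaperone genes were thus at the floor in some cells while every 26S gene was above it. Their SDs ran from 0.43 (Psmg1) to 1.42 (Psmd10). Of the tissue-specific core genes, Psma8, the alpha subunit of the spermatoproteasome, was above the floor in 1 cell, at 7.44 in a cell labelled +/-, and Psmb11, the thymus subunit, in none.

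Psmf1 encodes PI31, an inhibitor of the core in the test tube. Of the 49 members it had the most negative difference between KO and WT and between KO and +/-. It was listed at 0 in replicates 2 and 4 of the cells labelled Prdm14 KO and stood at 8.63 and 9.55 in replicates 1 and 3. All 13 cells labelled WT were between 8.73 and 9.98, and 11 of the 13 labelled +/- were between 8.51 and 10.18 while 2, both of run 3, were listed at 0. The cells at 0 thus all belonged to run 3, and in the remaining ones the labels overlapped. KO minus WT was -1.84 (pooled SD 0.88) and KO minus +/- was -1.26 (1.45), but -0.53 (1.72) within run 3. Between runs the cells labelled +/- of run 2 lay 1.37 above those of run 3. Without KO replicate 2 or replicate 4 KO minus +/- was -0.75. The other 3 probe sets of the gene gave KO minus WT values of 0.36, 0.11 and 0.42, opposite in sign, and were above the floor in 7, 13 and 4 cells.

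Psmc3ip was at 9.33, 9.98, 10.17 and 10.85 in the cells labelled KO, with medians of 8.92 in the cells labelled WT (highest 10.91) and 9.46 in those labelled +/- (highest 10.94). KO replicate 4, at 9.33, lay under the median of the +/- cells, and the other KO cells lay above both medians. KO minus WT was 1.28 (pooled SD 1.32) and KO minus +/- was 1.22 (1.36), and 1.82 within run 3, where 2 of the 6 cells labelled +/- were listed at 0. The call against +/- was lost with medians (0.62), with a floor of 8 (0.91) and without KO replicate 3 (0.96). A second probe set gave 1.18 for KO minus WT and 0.88, short of the call, for KO minus +/-, and followed the first with r = 0.90 over the 30 cells.

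Over all 49 members, 2 were higher by at least 1 between KO and WT (Psmb8 and Psmc3ip), against 7.9% of all genes, and 1 lower (Psmf1), against 4.32%. Between KO and +/- 2 were higher (the same genes), against 6.81%, and 2 lower (Psmd7 and Psmf1), against 3.7%. Between +/- and WT no member was past the call, against 2.42% higher and 1.95% lower, and Psmd5 came nearest at 0.997. No member had labels without overlap, against 0.225% of all genes between KO and WT, 0.0385% between KO and +/- and 0.0% between +/- and WT. The median over the 49 was -0.05, -0.01 and -0.02 in the 3 comparisons and 0.0 over all genes in each. Each pair of these comparisons shares the cells of 1 label.

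**Figure D5:**
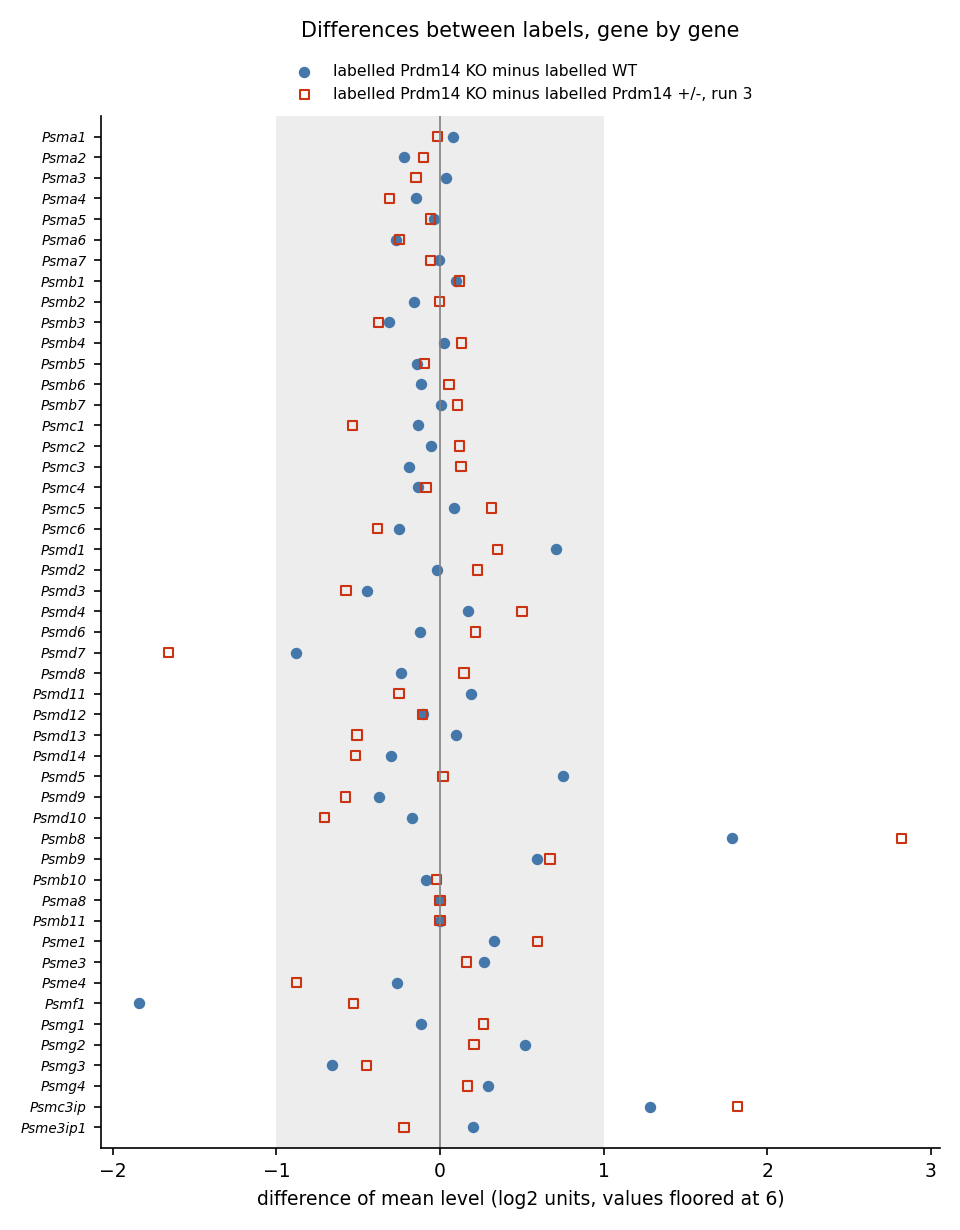
Difference of mean level between labels for each of the 49 genes (horizontal axis, log2 units, values floored at 6), ordered by role, with 1 symbol per comparison. Psmb8 and Psmc3ip lie past 1 in both. Psmf1 is past -1 in KO minus WT alone and at -0.53 within run 3. Psmd7 is past -1 within run 3 alone, and the core genes lie close to 0.

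Some members differed between runs of 1 label by as much as between labels. Among the cells labelled WT, 6 members were lower by at least 1 in run 1 than in run 2 (Psmb8, Psmb10, Psmd5, Psmd9, Psmd10 and Psme4), against 7.36% of all genes, and none higher (4.58%). Run 2 holds 3 of these cells. Among the cells labelled +/-, Psmb8, Psmc3ip and Psmf1 were higher by at least 1 in run 2 than in run 3 (4.45% of all genes) and Psmd7 lower (5.16%). Within run 2, Psmb10, Psmd9 and Psmd10 were lower by at least 1 in +/- than in WT (8.3%), with differences of -1.12, -1.85 and -1.16, and none higher (6.02%). With run and label fitted together by least squares, where run 1 adds nothing to KO minus WT and 3 WT cells carry it, 7 members were lower by at least 1 (Psmb10, Psmd3, Psmd7, Psmd9, Psmd10, Psme4 and Psmg3, against 11.7%) and 2 higher (Psmb8 at 2.33 and Psmc3ip at 2.13, against 12.5%). Psmf1 was then at -0.49. Within run 3, 2 members were higher in KO than in +/- (8.6%) and 1 lower (5.62%).

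Proteasome-associated genes outside the symbol rule showed no call between labels over all cells. Of 20 proteasome-associated symbols 14 were measured, 8 of them above the floor in all cells, and the median KO minus WT was 0.09. Sem1, a small cap subunit, lay at 12.90 ± 0.16, and Pomp, the chaperone that matures the core, at 11.63 ± 0.75. Vcp, the segregase that hands substrates over, lay at 12.24 ± 0.40. Nfe2l1, which drives proteasome genes when the protease is blocked, lay at 9.65 ± 0.70 with a KO minus WT of 0.59 (pooled SD 0.67), and Ngly1, which processes it, was above the floor in 7 cells. None of the 14 differed by 1 between labels over all cells, against the shares of all genes given above. Within run 2, +/- minus WT was -1.14 for Nfe2l2 (8.3% of all genes lower by at least 1) and 1.04 for Ngly1 (6.02% higher). With the run block KO minus WT was -1.59 for Nfe2l2, -1.47 for Ubqln2, -1.03 for Usp14 and -1.005 for Pomp (11.7% lower). For Ngly1 it was then 1.41 (12.5% higher). None of the 5 ubiquitin pathway symbols was found with a probe set of its own.

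Of 12 measured genes of class I presentation and the interferon response, 2 were higher by at least 1 in KO than in WT (7.9% of all genes), Tapbp at 1.50 (pooled SD 1.90) and B2m at 1.38 (1.72), and none lower. Between KO and +/- 2 were higher (6.81%), Tapbp at 1.70 (2.19) and H2-K1 at 1.73 (2.11). Between +/- and WT 1 was lower (1.95%), Erap1 at -1.31 (1.40). Each of these differences was smaller than the spread between cells. Run changed the calls. Within run 3, where 8.6% of all genes were higher by at least 1, KO minus +/- was also 1.73 for B2m and 1.17 for Erap1. Within run 2, +/- minus WT was -0.68 for Erap1 and past the call for B2m (2.03), H2-D1 (1.03), Tapbp (-1.01) and H2-K1 (-1.29). There, 6.02% of all genes were higher by at least 1 and 8.3% lower. With the run block, where 12.5% of all genes were higher, KO minus WT was 0.84 for Tapbp, 3.76 for B2m, 1.25 for Tap2 and 1.03 for H2-D1. But H2-D1 was at the floor in all 4 KO cells, and its KO minus WT over all cells was -0.58. Tapbp encodes the chaperone tapasin, B2m the light chain of class I, H2-K1 and H2-D1 heavy chains and Erap1 a peptide trimming enzyme. Tap1 and Tap2, which flank Psmb8 in the genome, were above the floor in 1 and 6 cells, and Nlrc5, the activator of class I genes, in none. Irf1, an interferon-responsive factor, was above the floor in 30 cells, at 11.45 ± 0.71. The median KO minus WT of the 12 was 0.14, against 0.0 over all genes. Germ cell markers moved with the label as well: 7 of 9 were higher by at least 1 in KO than in WT (7.9% of all genes). Their mean per cell ran from 11.14 to 11.93 in the cells labelled KO. It ran from 7.62 to 11.10 in those labelled WT and from 7.34 to 11.40 in those labelled +/-. Of 8 dissociation and stress genes, KO minus WT was 3.59 for Fos (pooled SD 1.93) and -1.05 for Atf3 (1.60). KO minus +/- was 3.14 for Fos (2.20) and -1.67 for Jun (1.76). The others were not past the call in these comparisons, and the shares of all genes are given above. Fos was above the floor in 4 of 4 KO cells, 3 of 13 WT cells and 4 of 13 +/- cells. The part of both lists in the values of Psmb8, Psmc3ip, Psmd7 and Psmf1 was not tested.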

How the data were processed

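Expression was measured in 30 single cells chosen as PGCs, 1 array per cell. The deposited values are log2 expression indices that the authors had computed in dChip 1.3 from perfect-match minus mismatch probes. How arrays were scaled to each other is not given in the sources at hand, and a value listed at 0 cannot be told from a weak transcript. Of 45101 probe sets, 34958 had 1 symbol in the platform annotation, 932 several and 9211 none. The 103 probe sets of the 49 members were reduced to the one with the highest mean per gene. Values under 6 were set to 6, and means over cells were compared as differences, which a floor makes smaller where cells lie at it. Each label counts as 1 sample, so no test between labels was run.

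Named genes were the catalytic pairs, members differing by at least 1 between labels in the same direction within the shared run, those with the highest and lowest SD in each role, and by counts all others. The members and lists were chosen with earlier results of these data known. Motifs were searched on both strands of the 250 bases upstream of each start in RefSeq, GRCm38.p6. Alternatives were floors of 4 and 8, quantile normalization, both array shifts, medians, the run as a block or held fixed, all probe sets, and leaving out each KO cell. The scripts were tested on simulated data. The scripts ran in Python 3.11.15 with pandas 2.3.3 and NumPy 2.4.6, and figures were drawn with matplotlib 3.10.9. The number of arrays limits the precision.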

Additional observations from a re-analysis of the deposited data

Results flagged for a closer look

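Psmb9, the immune counterpart of Psmb6, stood apart in 1 of the 4 cells labelled Prdm14 KO: replicate 4 was at 8.41 and the next cell at 6.28, a gap of 0.885 of the range of the 4 cells, past Dixon's limit for 4 samples. The other 2 cells were listed at 0 and set to the floor of 6, which sets the range: with a floor of 4, an alternative chosen after seeing the data, the ratio was 0.484 and under the limit. The 4 cells count as 1 sample, so the ratio describes cells only. Of 13 results examined in this way 1 was marked, and chance marks about 1 in 20. The same cell was the highest of all in Psmb8 (11.74) and the lowest in the mean of the 26S genes (11.21).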

How the results depend on the processing

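Of 25 results on list levels, counts, runs and spread, 227 of 249 alternatives stayed within the spread between cells or within 1.5 times the count. A reversal was marked only for a difference of at least 1 in the main setting. No list or run difference was that large, so none of these could be marked. Without one KO cell, KO minus WT of the 31 26S genes ranged from -0.15 to 0.03. The 22 that moved were all counts of members past the call. KO minus WT, higher (2): 1 with the mean over all probe sets. KO minus WT, lower (1): 0 with a floor of 8 and with all probe sets, 2 with quantile normalization, 3 with medians, 7 with the run as a block, and 1 to 3 without one KO cell. KO minus +/-, higher (2): 1 with a floor of 8 and with medians, and 1 to 2 without one KO cell. KO minus +/-, lower (2): 0 with a floor of 8, 1 with the block, within run 3 and with all probe sets, and 0 to 3 without one KO cell. Between +/- and WT, higher (0): 1 with a floor of 4 and with either shift of the arrays. Lower (0): 1 with medians and 3 with the block and within run 2. Why these counts moved was not tested.

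Of 27 single-gene results, 299 of 306 alternatives stayed within the spread between cells. That spread is wide, and a value could stay within it and lose the call. Psmb8, KO minus WT, fell to 0.89 in this way and Psmc3ip, KO minus +/-, to 0.62. Psmf1, KO minus +/-, reversed to 0.14 with the mean over all probe sets. Psmf1, KO minus WT, moved to -2.84 and -0.84 with floors of 4 and 8, to -0.49 with the block and to -0.24 with all probe sets. Psmb9 moved to 1.28 (KO minus WT) and 1.25 (KO minus +/-) with a floor of 4. Psmd7, KO minus WT, reached the call with quantile normalization (-1.19) and the block (-1.89) and without KO replicate 1 (-1.04) or 2 (-1.15). Psmb8, KO minus WT, ranged from 0.89 to 2.48 and KO minus +/- from 1.02 to 2.82 over the alternatives. No paired analysis was possible because the labels give cells no partner of another genotype: replicate numbers were given in accession order.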
